A study of Homo sapiens with 64 samples.

Results

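The 37 genes described here are a fixed list of genes of the G2 phase and mitosis: cyclins and kinases of mitotic entry, spindle checkpoint and kinetochore genes, kinesins, spindle and midzone proteins, the anaphase-promoting complex with its activator and substrates, and chromosome proteins. The list was given by name, and it was put together with earlier results of these data known. All 37 were found by symbol in each data set, among 26364 gene symbols in the C4-2 time course, 25207 in the HEK293T time course, 26364 in the immunoprecipitation table and 31796 gene names in SLAM-seq. All 37 also passed the filter on low counts in every data set, where 23437, 14939, 14967 and 15344 genes were tested in the same order.

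The series asks whether fibrillarin (FBL), the methyltransferase that places 2′-O-methyl groups on RNA as part of the box C/D small nucleolar ribonucleoprotein, acts on mRNA and its stability. C4-2 cells, an androgen-independent prostate cancer line, received a small interfering RNA (siRNA) against FBL (siFBL) or a control siRNA (siCTRL) and were collected at 0, 3, 6 and 12 h, with 2 RNA-seq libraries for each siRNA and hour. HEK293T cells, a line of embryonic kidney origin with a viral large T antigen, received siFBL, an siRNA against NOP56 (siNOP56) or siCTRL and were collected at 0, 6, 12 and 24 h, again with 2 libraries each. NOP56 is a core scaffold of that particle, and the series design names shNOP56 where the sample labels name siNOP56. The hours serve to follow mRNA loss, and the sources used here do not give how transcription was blocked. From C4-2 cells with siCTRL, 2 libraries were made of RNA immunoprecipitated with FBL antibody (RIP) and 2 of input RNA. SLAM-seq gave 16 libraries of C4-2 cells, with siFBL or siCTRL at 0, 6, 12 and 24 h, after labelling with 100 µM 4-thiouridine for 24 h and a chase with uridine. The thiol-labelled uridine of RNA made during labelling is read as T>C conversions. Of the 64 samples, 60 were used, and 4 nanopore samples were not analysed here. The labels do not say whether replicates came from separate cultures. P-values therefore rest on the spread between these samples, which may be technical. In C4-2, replicate pairs differed by 11.6 to 26.3 chi-square units per degree of freedom over genes with siCTRL, against 112 to 164 with siFBL. In HEK293T these were 1.5 to 9.08 with siCTRL, against 40.5 to 84.1 with siFBL and 25.3 to 57.6 with siNOP56. Each fit nevertheless used a single spread per gene for all its groups.

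Mitosis genes are transcribed late in the cell cycle, in G2 and mitosis, and the proteins of many are destroyed as the cell exits mitosis. In resting cells the MuvB core complex, as part of DREAM, represses them. In cycling cells the same core joins B-MYB (MYBL2) and FOXM1 and activates them. The core binds the cell cycle genes homology region (CHR) close to the transcription start, and the factor NF-Y binds CCAAT boxes upstream of it. Levels of these transcripts therefore follow the share of cells in G2 and mitosis, and they are used as proliferation markers in prostate tumours. In bulk RNA, fewer cells in these phases and less of each transcript per cell cannot be told apart, and this holds for each result below.

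Promoter sequence is shown for 9 members, 7 with a CHR close to the start and 2 without, since nearly all members moved together in C4-2 cells. The sequences are RefSeq's, on GRCh38.p14, and each covers 60 bases from 50 bases before the transcription start to base 10 after it, written 5′ to 3′ in the direction of the gene. Positions count from 1 at the start base, with no base 0. Capitals mark the CHR, searched as TTTGAA or TTCGAA on both strands, so that TTTGAA on the other strand reads TTCAAA. The windows are PLK1 chr16:23678839-23678898 (plus strand), BUB1B chr15:40161019-40161078 (plus strand), MKI67 chr10:128126414-128126473 (minus strand), CCNB2 chr15:59105096-59105155 (plus strand), HMMR chr5:163460582-163460641 (plus strand), CKS2 chr9:89311145-89311204 (plus strand) and KIF4A chrX:70290054-70290113 (plus strand).
PLK1: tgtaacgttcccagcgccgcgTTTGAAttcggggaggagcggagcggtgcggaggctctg
BUB1B: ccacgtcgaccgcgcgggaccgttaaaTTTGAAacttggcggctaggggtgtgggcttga
MKI67: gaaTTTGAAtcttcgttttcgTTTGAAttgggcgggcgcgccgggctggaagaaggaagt
CCNB2: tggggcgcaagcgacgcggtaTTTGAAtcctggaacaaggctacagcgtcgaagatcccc
HMMR: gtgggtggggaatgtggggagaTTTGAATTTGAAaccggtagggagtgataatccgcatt
CKS2: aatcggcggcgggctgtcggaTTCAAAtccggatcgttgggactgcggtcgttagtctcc
KIF4A: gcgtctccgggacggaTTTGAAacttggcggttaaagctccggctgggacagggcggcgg

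The PLK1 window holds TTTGAA with its first base at −29, and CCNB2 and CKS2 hold a CHR with its first base at the same place, CKS2 as TTCAAA. HMMR holds a tandem of TTTGAA at −28 and −22, and MKI67 holds TTTGAA at −47 and −29. BUB1B and KIF4A hold it at −23 and −34. The next 2 windows, SKA2 at chr17:59155177-59155236 (minus strand) and KIF20A at chr5:138179062-138179121 (plus strand), hold no match.
SKA2: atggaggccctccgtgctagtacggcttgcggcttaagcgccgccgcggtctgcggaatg
KIF20A: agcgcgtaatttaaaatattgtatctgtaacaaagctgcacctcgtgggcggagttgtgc

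Of the 37 members, 32 had an entry in the RefSeq promoter table, with 38 promoters in all, because ANAPC10 had 4 and AURKB, CDK1 and PTTG1 had 2 each. AURKA, TTK, BIRC5, TPX2 and UBE2C had none. Over the 300 bases from 250 before to 50 after the start, 26 of the 38 member promoters (68.4%) held a CHR, against 16.4% of 35116 promoters in the table. CCAAT, searched on both strands as well, stood in 29 of 38 (76.3%), against 34.6% of all promoters. The window from −50 to 10 held a CHR in 18 of 38 (47.4%), against 3.09%. By gene, 25 of the 32 members had a CHR, 26 had a CCAAT and 20 had both. A match is a description of letters and was not tested for binding.

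**Figure D1:**
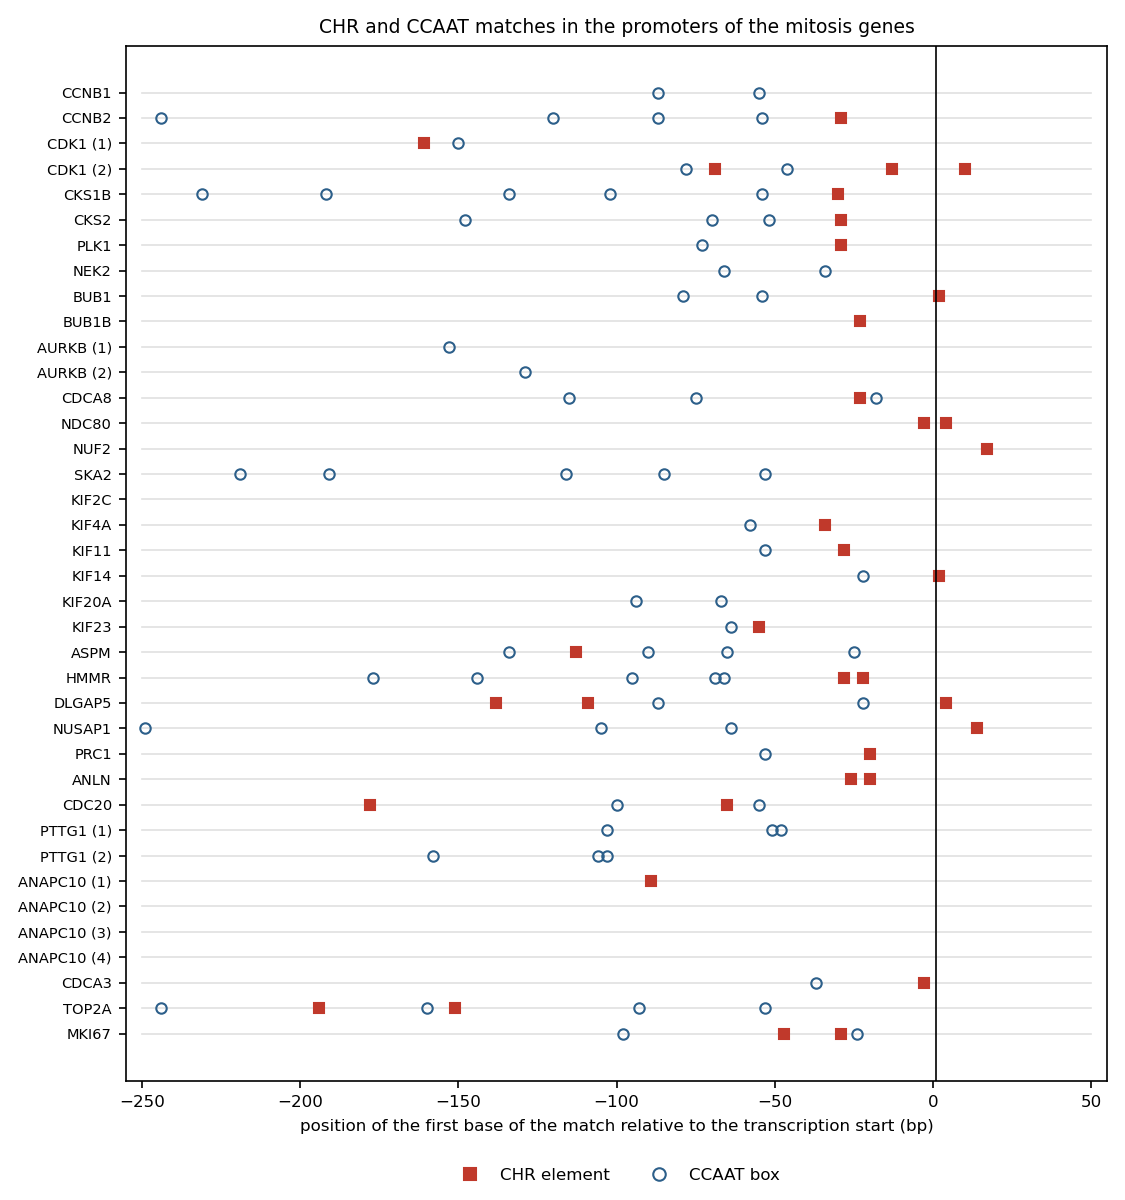
Positions of CHR (TTTGAA or TTCGAA) and CCAAT matches on either strand in the 38 RefSeq promoters of 32 mitosis genes, by distance from the transcription start in bases. The window from −50 to 10 holds a CHR in 18 of the 38 promoters, and CCAAT matches lie mostly upstream of it.

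The C4-2 libraries held 79 to 106.1 mega (M) counts, the HEK293T libraries 16 to 19.9 M, the RIP and input libraries 22.9 to 33.3 M, and SLAM-seq 14.3 to 60.3 M mapped reads. Values are counts per M counts (CPM), scaled with trimmed mean of M-values factors unless stated. FBL stood at 3.63 and 2.76 CPM with siFBL, against 305 and 265 with siCTRL, in C4-2 at 0 h (89.3-fold lower, edgeR adjusted p = 4.23e-06), and at 17.7 and 15.5 CPM with siFBL, against 322 and 313 with siCTRL, in HEK293T at 0 h (19.1-fold lower, edgeR adjusted p = 1.21e-05). NOP56 stood at 92 and 76.3 CPM with siNOP56, against 206 and 204 with siCTRL, in HEK293T at 0 h (2.43-fold lower, edgeR adjusted p = 0.0287). In SLAM-seq FBL was called lower with siFBL (log2 −5.50, edgeR adjusted p = 0.0137). It was near the floor there, at 0 to 0.0865 CPM with siFBL and 0.126 to 1.94 with siCTRL, so the size of that difference is uncertain. The 8 prostate luminal markers summed to 6380 to 8250 CPM with siFBL and 5510 to 6500 with siCTRL in C4-2, and to at most 63.4 CPM in HEK293T. Of 4 HEK293T markers, NEFM and LHX1 had siCTRL medians of 120 and 1.84 CPM in HEK293T, against 0.125 and 0.118 in C4-2. NES and HOXA10 went the other way, at 9.13 and 12.9 CPM in HEK293T, against 48.3 and 21.2 in C4-2. Summed leukocyte markers were at most 2.68 CPM and endothelial markers at most 2.18 CPM in any library. The 4 fibroblast markers summed to between 16.3 and 71.7 CPM. Most of that was COL1A1, while COL1A2, DCN and LUM were at most 1.78, 0.673 and 1.22 CPM. Of the C4-2 siFBL libraries, A held more of the summed mitosis genes than B at every hour. In SLAM-seq the hour in the file header differs from the labelled hour in 12 of 16 libraries, with no mismatch in siRNA, and 2 siFBL libraries (replicate 2, labelled 0 h and 12 h, both 24 h by their headers) stood apart from the other siFBL libraries.

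Mitosis genes fell together in C4-2 cells with siFBL. At 0 h, 36 of the 37 were called lower and 0 higher with siFBL than with siCTRL (edgeR's quasi-likelihood test, Benjamini-Hochberg adjusted p below 0.05 over all genes tested, which every call below uses), when 6.87% of all genes tested were called lower and 1.61% higher. Their median log2 difference was −2.09, beside 0.041 over all genes. DESeq2 also called 36 lower and 0 higher. The exception was ANAPC10. At 12 h the test called 36 lower and 0 higher (10.7% and 2.73% of all genes), with a median of −2.40, and over the mean of the 4 hours it called 37 lower and 0 higher (24.8% and 18%), with a median of −2.17. The test of the mean, like the slope tests below, treats libraries of different hours as independent. Deviations of same-lettered libraries correlated between hours at 0.158 to 0.479 with siFBL and at −0.047 to 0.018 with siCTRL. At each of the 4 hours, all 37 members had both siFBL libraries below both siCTRL libraries, as 17% of all genes tested did, while 0 members and 5.83% of all genes lay above at each hour. Scaling to the ribosomal protein mRNAs moved the median of all genes to 0.26 at 0 h, and 35 members were then called lower. The summed mitosis genes took between 671.3 and 1815 counts per M counts with siFBL, and between 3655 and 5287 with siCTRL.

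**Figure D2:**
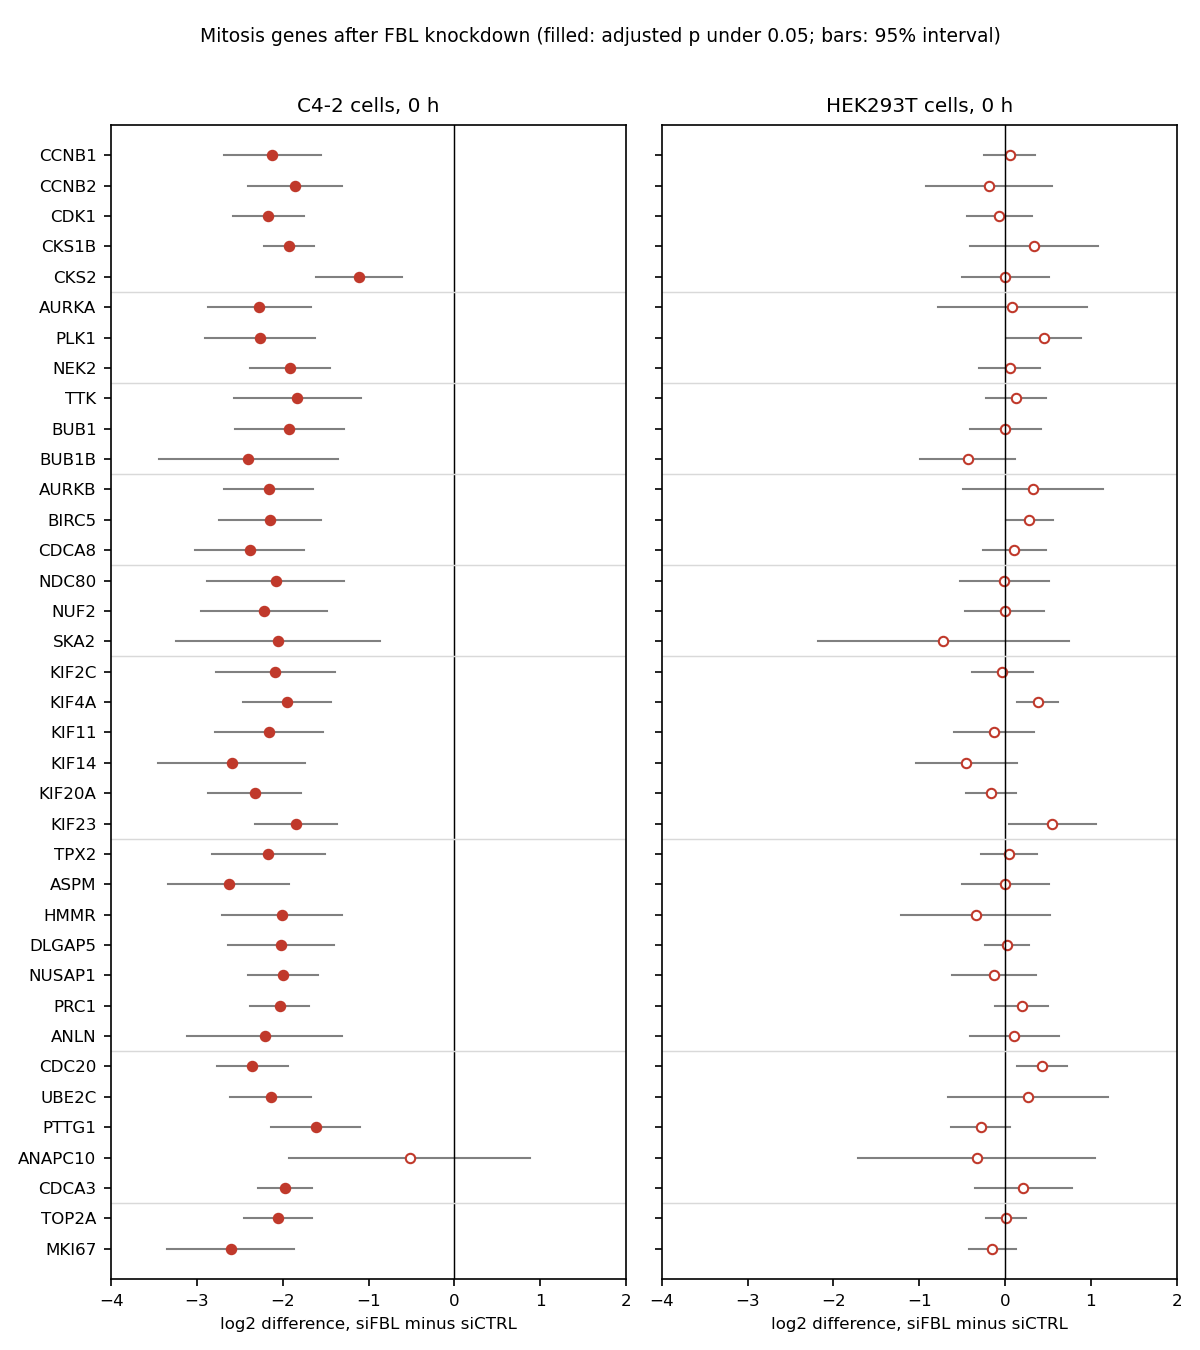
Log2 difference of each of the 37 mitosis genes, siFBL against siCTRL, in C4-2 and HEK293T cells at 0 h, with bars of the 95% interval of the fit (2 libraries for each siRNA), grouped by role and filled where called. In C4-2 36 members are called lower, with a median of −2.09, while the HEK293T values lie about 0 and none is called.

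The cyclin B and CDK1 module drives entry into mitosis. Its 5 members were all called lower at 0 h. CDK1, the kinase itself, had 79.7 and 64.2 CPM with siFBL, against 339 and 307 with siCTRL, at 0 h. Both siFBL libraries lay far below both siCTRL libraries (log2 −2.17, SE 0.195, edgeR adjusted p = 4.23e-06). The B-type cyclins that activate it fell alike, CCNB1 by 2.12 and CCNB2 by 1.86 on the log2 scale. CKS1B and CKS2, small subunits that bind the kinase, fell by 1.93 and 1.11. CKS2 had 78.3 and 73.5 CPM with siFBL, against 159.5 and 168 with siCTRL, the smallest difference of any called member (log2 −1.11, SE 0.236, edgeR adjusted p = 0.00751). At 12 h its difference was −2.14. Reads of CKS1B and PTTG1 may be shared with near-identical copies, and the sources used here do not say how such reads were counted.

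The 3 mitotic kinases of spindle poles and centrosomes were also called lower at 0 h. PLK1, which acts in mitotic entry, centrosome maturation and cytokinesis, had 71.5 and 49.6 CPM with siFBL, against 292 and 290.2 with siCTRL, at 0 h (log2 −2.27, SE 0.302, edgeR adjusted p = 0.000147). By 12 h it stood at 12.9 and 6.48 CPM with siFBL, against 68.8 and 72.2 with siCTRL (log2 −2.86, edgeR adjusted p = 1.57e-05). The siFBL libraries thus lay below the siCTRL libraries at the start and at the end of the course, while the level with either siRNA was lower at 12 h. AURKA, the kinase that TPX2 activates at spindle poles, fell by 2.27 on the log2 scale and NEK2, which separates centrosomes, by 1.91.

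The spindle checkpoint holds anaphase until kinetochores are attached, and its 3 members fell. BUB1B (BUBR1), part of the complex that inhibits CDC20, had 23.9 and 13.4 CPM with siFBL, against 105 and 91.9 with siCTRL, at 0 h (log2 −2.40, SE 0.49, edgeR adjusted p = 0.00552). At 12 h it had 11.3 and 3.48 CPM with siFBL, against 50.6 and 50 with siCTRL. Its siFBL library B was the lower of the pair at each hour. BUB1, a kinetochore kinase, fell by 1.93 and TTK (MPS1), the kinase that starts checkpoint signalling, by 1.83 on the log2 scale at 0 h.

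The chromosomal passenger complex corrects faulty attachments and later acts at the midzone. Its 3 members fell at 0 h. BIRC5 (survivin) had 58.6 and 41.6 CPM with siFBL, against 228 and 216 with siCTRL, at 0 h (log2 −2.15, SE 0.278, edgeR adjusted p = 0.000109). Neither siFBL library came near a siCTRL library, and the kinase AURKB and its partner CDCA8 (borealin) fell by 2.16 and 2.38 on the log2 scale.

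The 3 kinetochore members, which bind microtubules to chromosomes, were called lower as well. NDC80 and NUF2, partners in the NDC80 complex, fell by 2.08 and 2.22 at 0 h. SKA2, of the SKA complex that follows microtubule ends, had 24.9 and 10.6 CPM with siFBL, against 78.1 and 69.7 with siCTRL (log2 −2.06, SE 0.558, edgeR adjusted p = 0.0312). Library B was the lower of the siFBL pair, and at 12 h the libraries held 45 and 14.4 CPM with siFBL, against 133 and 121 with siCTRL. Scaled to the ribosomal protein mRNAs, SKA2 was not called at 0 h (log2 −1.82, edgeR adjusted p = 0.0785) or at 12 h (log2 −1.88, edgeR adjusted p = 0.0501).

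Kinesins are motors that build and divide the spindle, and all 6 fell at 0 h. KIF20A (MKLP2), which brings the passenger complex to the midzone, had 43 and 28.8 CPM with siFBL, against 189 and 171 with siCTRL, at 0 h (log2 −2.33, SE 0.254, edgeR adjusted p = 2.26e-05). Of the others, KIF14, which acts in cytokinesis, had the largest difference (−2.60) and KIF23 (MKLP1), of centralspindlin, the smallest (−1.84). KIF11 (Eg5), which pushes the spindle poles apart, fell by 2.16, the microtubule depolymerase KIF2C (MCAK) by 2.09 and the chromokinesin KIF4A by 1.95 on the log2 scale.

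Among the 7 spindle and midzone proteins, all were called lower at 0 h. TPX2, a spindle assembly factor, had 69.4 and 46.3 CPM with siFBL, against 278 and 242 with siCTRL, at 0 h (log2 −2.17, SE 0.31, edgeR adjusted p = 0.000287). ASPM, a spindle pole protein, had the largest difference of the 37 members (log2 −2.63, SE 0.334, edgeR adjusted p = 9.32e-05). The microtubule binders HMMR, DLGAP5 (HURP) and NUSAP1 fell by 2.01, 2.02 and 2.00, the midzone crosslinker PRC1 by 2.04 and anillin (ANLN), a scaffold of the cleavage furrow, by 2.21 on the log2 scale.

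The anaphase-promoting complex marks securin and cyclin B for destruction. Of its 5 listed genes, 4 were called lower at 0 h. CDC20, its activator, had 76.3 and 58 CPM with siFBL, against 343 and 344 with siCTRL, at 0 h (log2 −2.35, SE 0.193, edgeR adjusted p = 1.96e-06). The ubiquitin-conjugating enzyme UBE2C fell by 2.14, PTTG1 (securin) by 1.62 and CDCA3, a trigger of mitotic entry, by 1.98 on the log2 scale. ANAPC10, a core subunit that helps to recruit substrates, had 6.85 and 4.07 CPM with siFBL, against 8.29 and 7.38 with siCTRL, at 0 h (log2 −0.52, SE 0.662, edgeR adjusted p = 0.65). At 3 h its siFBL libraries stood at 5.23 and 0.913 CPM, against 6.53 and 7.67 with siCTRL. At 6 h they stood at 4.78 and 1.28 CPM with siFBL, against 8.48 and 6.79 with siCTRL, and at 12 h at 5.53 and 1.51 CPM with siFBL, against 6.6 and 7.13 with siCTRL. Library B was well below library A, and over the mean of the hours ANAPC10 was called lower (log2 −1.01, SE 0.335, edgeR adjusted p = 0.0244). That call was lost with counts summed over the hours for each library letter (log2 −0.96, edgeR adjusted p = 0.149) and with ribosomal protein scaling (log2 −0.84, edgeR adjusted p = 0.069).

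Both chromosome proteins fell at 0 h. MKI67 (Ki-67), which coats mitotic chromosomes and is the common proliferation marker, had 47.8 and 33.9 CPM with siFBL, against 261 and 237 with siCTRL, at 0 h (log2 −2.61, SE 0.348, edgeR adjusted p = 0.000147). TOP2A, the topoisomerase that untangles sister chromatids, fell by 2.06 on the log2 scale. Over the 8 libraries of each siRNA, all hours together, 29 of 37 members had every siFBL library below every siCTRL library and 0 had every one above, beside 4.9% and 1.48% of all genes tested. The other 8 were CKS2, AURKA, PLK1, TTK, AURKB, CDCA8, KIF23 and ANAPC10. The first 7 of them had called falling slopes with both siRNAs, as described below.

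With siCTRL, some mitosis transcripts fell over the hours relative to other mRNAs and some rose. Slopes are log2 per hour over 0 to 12 h, and because each library is scaled to its own total, a loss shared by all mRNAs is not seen. With siCTRL, 10 members had a falling slope and 5 a rising one (18.6% and 15.4% of all genes). Scaled to the ribosomal protein mRNAs, these were 28 and 0 (47.5% and 0.102% of all genes), with the median slope of all genes at −0.089, so the sign of small slopes rests on the scaling. AURKA had 136 and 117 CPM at 0 h and 7.64 and 7.81 at 12 h with siCTRL (slope −0.34, edgeR adjusted p = 4.75e-07). It was the most strongly falling member. CDCA8 had 100.3 and 98.5 CPM at 0 h and 14.8 and 14.9 at 12 h (slope −0.23). TTK had 43.4 and 40 CPM at 0 h and 7.13 and 7.17 at 12 h (slope −0.23). AURKB had 116 and 119.6 CPM at 0 h and 26.2 and 28.2 at 12 h (slope −0.18). These 4 are kinases and passenger complex genes. PLK1 had 292 and 290.2 CPM at 0 h and 68.8 and 72.2 at 12 h (slope −0.18). KIF23 had 47.7 and 38.9 CPM at 0 h and 12.6 and 10.4 at 12 h (slope −0.17). ASPM had 39 and 36.1 CPM at 0 h and 14 and 10.4 at 12 h (slope −0.15). For these 7 both 12 h libraries lay below both 0 h libraries. CKS2 had 159.5 and 168 CPM at 0 h and 69.9 and 58.1 at 12 h (slope −0.11). KIF11 had 78.5 and 70.3 CPM at 0 h and 32.3 and 35.9 at 12 h (slope −0.10), and CDC20 had 343 and 344 CPM at 0 h and 199.6 and 219 at 12 h (slope −0.061).

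The 5 members with a rising slope under siCTRL each had a slope below 0 when scaled to the ribosomal protein mRNAs. CKS1B had 74.6 and 67.6 CPM at 0 h and 132 and 126 at 12 h (slope 0.071). KIF4A had 76.3 and 62.4 CPM at 0 h and 118 and 118 at 12 h (slope 0.059). PTTG1 had 185 and 175 CPM at 0 h and 299.7 and 292 at 12 h (slope 0.058). Their 12 h values lay above their 0 h values in both libraries. BIRC5 had 228 and 216 CPM at 0 h and 352 and 354 at 12 h (slope 0.057) and PRC1 had 129.5 and 117 CPM at 0 h and 191 and 190.5 at 12 h (slope 0.048). Leaving out a single siCTRL library of 0 h or 12 h left 2 or 3 of the rising calls (3 without 0 h A, 2 without 0 h B, 3 without 12 h A and 3 without 12 h B).

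With siFBL, 16 members had a falling slope and 1, CKS1B, a rising one (19.2% and 15.9% of all genes). Scaled to the ribosomal protein mRNAs these were 32 and 0 (47.4% and 0.145% of all genes). AURKA had 30.5 and 21.9 CPM at 0 h and 1.32 and 0.77 at 12 h with siFBL (slope −0.40), CDCA8 23.4 and 14.7 CPM at 0 h and 2.28 and 1.25 at 12 h (−0.30) and TTK 13.6 and 9.87 CPM at 0 h and 1.98 and 0.598 at 12 h (−0.28). AURKA, CDCA8 and TTK were the steepest 3 with either siRNA, and their levels with siFBL were lower at each hour. PLK1 had 71.5 and 49.6 CPM at 0 h and 12.9 and 6.48 at 12 h (−0.24), CKS2 78.3 and 73.5 CPM at 0 h and 19.9 and 9.24 at 12 h (−0.20) and AURKB 25.1 and 27.6 CPM at 0 h and 4 and 7.13 at 12 h (−0.19). The remaining falling calls were KIF23 (−0.16), ASPM (−0.13), BUB1B (−0.12), CDC20 (−0.11), KIF11 (−0.098), NDC80 (−0.091), CCNB1 (−0.086), KIF20A (−0.068), NEK2 (−0.06) and CDCA3 (−0.05). With RLE size factors NDC80, NEK2 and CDCA3 were not called (edgeR adjusted p = 0.0566, 0.0518 and 0.0787), and DESeq2 did not call CDCA3 (adjusted p = 0.066). Without siFBL 12 h library B, which held the fewest summed mitosis counts, 10 members fell and 8 rose, and without siFBL 3 h library A 2 rose.

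The difference between these slopes tests whether loss was faster with siFBL. The test called 0 of 37 members lower and 0 higher (0.00427% and 0% of all genes, which is 1 gene of 23437), and an unadjusted p under 0.05 was reached by 2 members lower and 0 higher. DESeq2 called 0 members lower and 0 higher, and 1 lower member reached an unadjusted p under 0.05. Here and below, counts at an unadjusted p have no share of all genes beside them. The median slope difference, siFBL against siCTRL, was −0.026 log2 per hour in the members, beside −0.004 over all genes. Without siFBL 12 h library A the test called 1 member lower. The median log2 difference between the siRNAs was −2.09 at 0 h, −2.07 at 3 h, −2.12 at 6 h and −2.40 at 12 h.

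**Figure D3:**
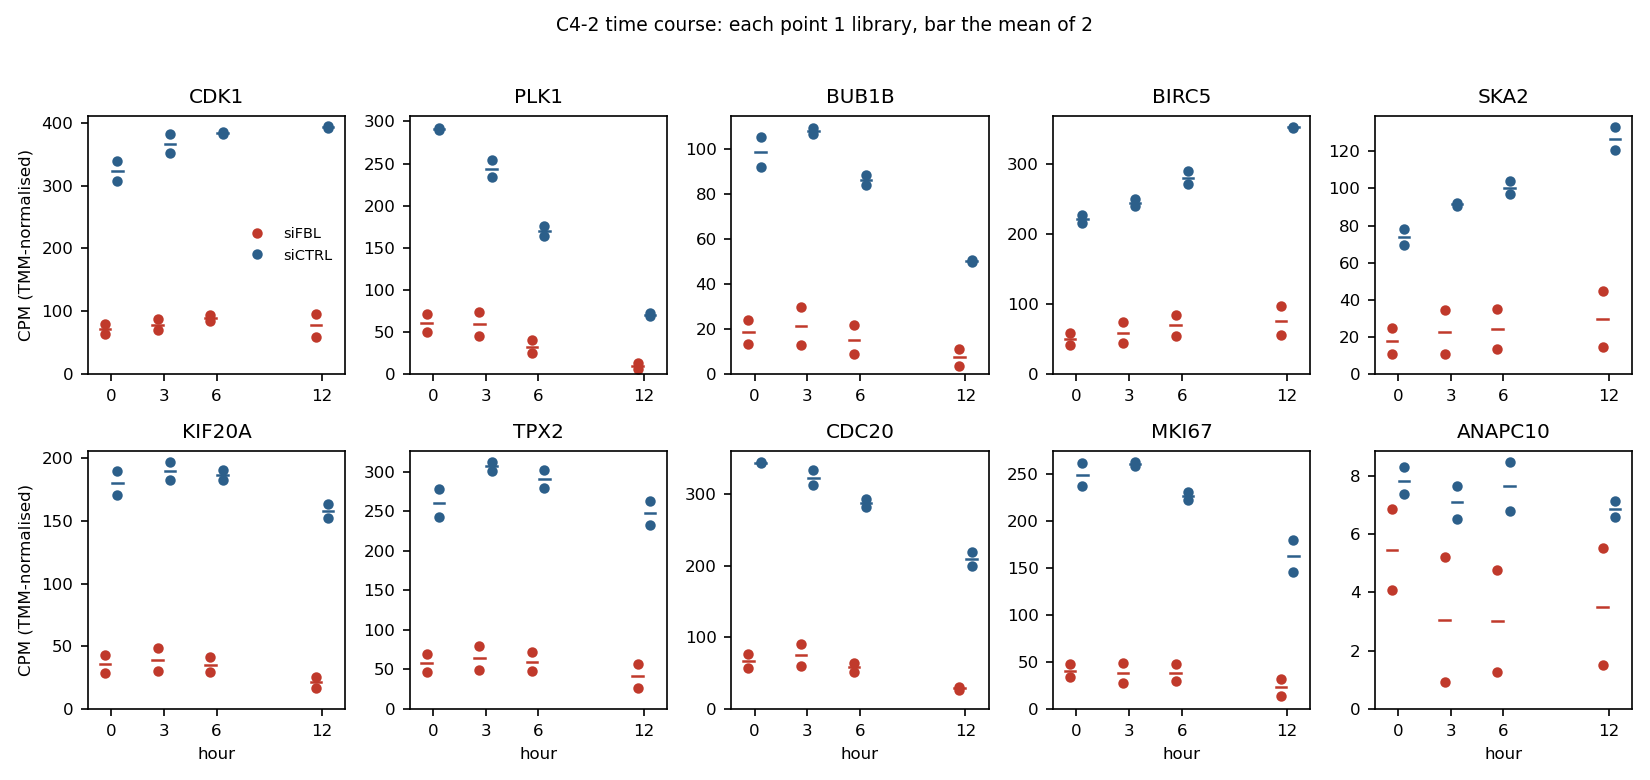
CPM on a linear axis against hours (0, 3, 6 and 12) for 10 mitosis genes in C4-2 cells, with siFBL and siCTRL libraries A and B as points and their means as short bars. The siFBL points lie below the siCTRL points at each hour, and PLK1 falls with both siRNAs.

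The other genes of mitosis were given by a list of 80 genes in 5 roles. In C4-2 at 0 h, 63 of the 80 were called lower and 0 higher (6.87% and 1.61% of all genes), with a median log2 difference of −1.74. Over the mean of the hours 74 were lower and 0 higher (24.8% and 18% of all genes). By role, 25 of 25 spindle and cytokinesis genes, 16 of 21 checkpoint and kinetochore genes, 11 of 12 mitotic entry genes and 5 of 6 transcription factors of G2 genes were lower at 0 h. Of the 16 further subunits and partners of the anaphase-promoting complex, 6 were called lower, with a median of −0.48. MYBL2 (B-MYB) fell by 2.37 and FOXM1 by 1.96 on the log2 scale. ARPP19, an inhibitor of the phosphatase PP2A in mitosis, fell by 0.88, while its relative ENSA was at −0.22 and not called. UBE2S, which extends ubiquitin chains, and ANAPC5 fell by 1.40 and 0.62. The checkpoint gene BUB3 fell by 0.88 and SKA3, a partner of SKA2, by 1.97. CKAP5, a microtubule polymerase, fell by 0.94 and SPAG5 (astrin) by 1.85. Leaving out 1 library of 0 h left 52 to 56 of these genes called.

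In HEK293T cells at 0 h, the mitosis genes lay on both sides of their siCTRL level with siFBL. The edgeR test called 0 of 37 lower and 0 higher (0.81% and 0.93% of all genes), and 0 lower and 5 higher reached an unadjusted p under 0.05. The shares of all genes, here and at 24 h, are those of adjusted calls. They are no background for counts at an unadjusted p. DESeq2 called 0 lower and 1 higher, KIF4A. The median log2 difference was 0.011, beside 0.043 over all genes. The summed mitosis genes took 5777 and 5423 counts per M counts with siFBL, against 5562 and 5595 with siCTRL. The groups overlapped in that sum.

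The members given by library in C4-2 read as follows in HEK293T at 0 h. CDK1 had 56.7 and 65.5 CPM with siFBL, against 64.3 and 63.7 with siCTRL. PLK1 had 428 and 548 CPM with siFBL, against 361 and 349.5 with siCTRL (log2 0.46, SE 0.203, edgeR adjusted p = 0.246). BUB1B had 63.1 and 44.9 CPM with siFBL, against 72.6 and 73.3 with siCTRL. PLK1 was the higher and BUB1B the lower with siFBL in both libraries, and neither was called. BIRC5 had 157 and 165 CPM with siFBL, against 134 and 131 with siCTRL. KIF20A had 87.9 and 80.4 CPM with siFBL, against 96.1 and 92.1 with siCTRL. TPX2 had 329 and 264 CPM with siFBL, against 282 and 292 with siCTRL. The siFBL libraries lay on both sides of siCTRL for TPX2. CDC20 had 293 and 286 CPM with siFBL, against 217 and 213 with siCTRL. MKI67 had 487 and 460.1 CPM with siFBL, against 515 and 534 with siCTRL. SKA2 had 50.4 and 17.2 CPM with siFBL, against 55.7 and 55.5 with siCTRL (log2 −0.72, SE 0.69, edgeR adjusted p = 0.633). The SKA2 libraries of siFBL stood apart from each other, with replicate 2 low. ANAPC10 showed the same split, with 8.22 and 4.09 CPM with siFBL, against 7.76 and 7.75 with siCTRL. At 24 h SKA2 had 92.4 and 21.2 CPM with siFBL, against 118 and 115 with siCTRL, again with replicate 2 low.

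At 24 h 4 members were called higher and 0 lower with siFBL (8.96% and 6.11% of all genes), and 3 lower and 7 higher reached an unadjusted p under 0.05. CDC20 had 158 and 190.2 CPM with siFBL, against 114 and 103 with siCTRL (log2 0.68, SE 0.139, edgeR adjusted p = 0.00437). KIF4A had 252 and 222 CPM with siFBL, against 162 and 168 with siCTRL (log2 0.52, edgeR adjusted p = 0.00662). TOP2A had 284 and 266 CPM with siFBL, against 192 and 206 with siCTRL (log2 0.47, edgeR adjusted p = 0.00944). In each of them both siFBL libraries lay above both siCTRL libraries. BIRC5 had 390.1 and 406 CPM with siFBL, against 295 and 297 with siCTRL (log2 0.43, edgeR adjusted p = 0.0332). With the 24 h libraries alone none was called. Left-out libraries moved these counts to 1 higher without siCTRL replicate 1, 0 without siCTRL replicate 2, 2 without siFBL replicate 2, and 4 lower without siFBL replicate 1. DESeq2 called CDCA8 lower, as did the fit with the replicate number as a block.

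Over the mean of the 4 hours, 8 members were called lower and 8 higher with siFBL in HEK293T (20.2% and 23.8% of all genes), with a median of 0.056. This test treats libraries of different hours as independent, but same-numbered libraries of one knockdown deviated together over the hours. Their deviations correlated at 0.71 to 0.799 within siFBL and 0.531 to 0.732 within siNOP56, but at −0.003 to 0.058 within siCTRL (median 0.64 over all 18 pairs). With counts summed over the hours for each replicate number, 0 members were called in either direction. Scaled to the ribosomal protein mRNAs, 2 were lower and 17 higher (12.2% and 34% of all genes), with the median of all genes at 0.175 in place of 0.017. Values are the lowest, median and highest of 8 libraries. Here and below, such ranges pool hours between which levels changed, so their overlap does not show overlap within an hour. CDC20 had 158, 252 and 295 CPM with siFBL, against 94.4, 128 and 217 with siCTRL (log2 0.79). PLK1 had 90.9, 199 and 548 CPM with siFBL, against 65, 99.2 and 361 with siCTRL (log2 0.76). KIF23 had 23.1, 31.3 and 99.5 CPM with siFBL, against 15.2, 18.7 and 66.8 with siCTRL (log2 0.66). These had the 3 largest increases. The ranges of both siRNAs overlapped over all hours together, but at each of the 4 hours both siFBL libraries lay above both siCTRL libraries. KIF4A had 75.2, 146 and 252 CPM with siFBL, against 61, 107 and 168 with siCTRL (0.46). NEK2 had 7.45, 16.4 and 33.4 CPM with siFBL, against 6.21, 10.6 and 32 with siCTRL (0.41). BUB1 had 45.4, 107 and 133 CPM with siFBL, against 34.5, 84.4 and 132 with siCTRL (0.31). Their ranges over all hours overlapped too. BIRC5 had 157, 282 and 406 CPM with siFBL, against 131, 238 and 297 with siCTRL (0.30). TOP2A had 221, 278 and 287 CPM with siFBL, against 192, 231 and 249 with siCTRL (0.26).

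Of the members called lower over the mean of the hours, SKA2 had 15, 35.8 and 92.4 CPM with siFBL, against 55.5, 90 and 118 with siCTRL (log2 −0.94). BUB1B had 24.6, 40.9 and 63.1 CPM with siFBL, against 42.1, 57 and 73.3 with siCTRL (−0.54). KIF14 had 14.9, 21.6 and 33 CPM with siFBL, against 21.6, 34.1 and 41.2 with siCTRL (−0.45). SKA2 had the largest decrease, with siFBL replicate 2 low at each hour. CKS2 had 6.53, 13.1 and 69.6 CPM with siFBL, against 11.1, 18.6 and 66.3 with siCTRL (−0.39). KIF11 had 15.3, 34.2 and 110.1 CPM with siFBL, against 25.9, 46.3 and 105 with siCTRL (−0.34). KIF2C had 58.8, 78 and 92 CPM with siFBL, against 78.7, 94.4 and 103 with siCTRL (−0.27). All these ranges over the pooled hours overlapped between the siRNAs. MKI67 had 224, 313 and 487 CPM with siFBL, against 291, 394 and 534 with siCTRL (−0.26). KIF20A had 54.1, 69.7 and 87.9 CPM with siFBL, against 64.2, 85 and 96.1 with siCTRL (−0.20). The count of lower calls was 4 without siCTRL 24 h replicate 2, 5 without siFBL 0 h replicate 2, 5 without siFBL 12 h replicate 2 and 4 without siFBL 24 h replicate 2. Of the 80 other mitosis genes, 10 were lower and 29 higher (20.2% and 23.8% of all genes), with a median of 0.11, and with counts summed over the hours for each replicate number 0 were lower and 0 higher. In the test over all hours, 10 of the 16 genes of the anaphase-promoting complex in that list were higher and 1 lower, beside the same shares of all genes, the lower one being its inhibitor FBXO5 (log2 −0.35).

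With siNOP56 at 0 h, edgeR called 0 of 37 members lower and 0 higher (0.0669% and 0.12% of all genes), and 0 lower and 1 higher reached an unadjusted p under 0.05. DESeq2 called 0. At 24 h 1 member was called higher, CDC20, and 0 lower (3.58% and 1.73% of all genes). CDC20 had 177 and 161 CPM with siNOP56, against 114 and 103 with siCTRL (log2 0.64, SE 0.139, edgeR adjusted p = 0.0161). Without siCTRL replicate 1, siCTRL replicate 2 or siNOP56 replicate 2 of that hour it was not called, and without siNOP56 replicate 1 there were 2 calls. Over the mean of the hours 1 was lower and 7 higher (14.4% and 17.9% of all genes), and 0 and 5 with ribosomal protein scaling (11.4% and 17% of all genes). Summed over the hours for each replicate number, 0 members were called. CDC20 had 161, 213 and 293 CPM with siNOP56, against 94.4, 128 and 217 with siCTRL (log2 0.67) as lowest, median and highest of 8 libraries. KIF23 had 17.4, 24.9 and 106 CPM with siNOP56, against 15.2, 18.7 and 66.8 with siCTRL (0.47). PLK1 had 75.2, 141 and 462 CPM with siNOP56, against 65, 99.2 and 361 with siCTRL (0.40). These 3 were also higher with siFBL over the mean of the hours, a comparison that shares the siCTRL libraries. ASPM had 36.7, 74.5 and 126 CPM with siNOP56, against 33.8, 57.9 and 108 with siCTRL (0.32). BUB1 had 42, 103.5 and 140.5 CPM with siNOP56, against 34.5, 84.4 and 132 with siCTRL (0.30). CCNB1 had 37.6, 75.5 and 149.9 CPM with siNOP56, against 32.5, 60.5 and 148 with siCTRL (0.24). Over all hours together, the ranges of these members overlapped. KIF4A had 63, 128 and 201 CPM with siNOP56, against 61, 107 and 168 with siCTRL (0.22), and the member called lower, NUSAP1, had 46.6, 87.2 and 124 CPM with siNOP56, against 68.9, 119 and 137 with siCTRL (−0.33).

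The higher calls over the mean of the hours with siNOP56 came to 4 when siCTRL 0 h replicate 1, siCTRL 24 h replicate 2, siNOP56 12 h replicate 2 or siNOP56 6 h replicate 2 was left out. The call of NUSAP1 was lost without any 1 of the 8 siCTRL libraries and without replicate 2 of siNOP56 at any of the 4 hours, and without siNOP56 6 h replicate 1 there were 2 lower calls.

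The 2 knockdowns were also set against each other in HEK293T. Over the mean of the hours, 6 members were lower and 4 higher with siFBL than with siNOP56 (7.02% and 7.24% of all genes). The split was 1 and 8 with ribosomal protein scaling (2.68% and 13.5% of all genes), and 0 members were called when counts were summed over hours for each replicate number. BUB1B had 24.6, 40.9 and 63.1 CPM with siFBL, against 39, 53.6 and 62.5 with siNOP56 (log2 −0.41). ASPM had 32.3, 50 and 121 CPM with siFBL, against 36.7, 74.5 and 126 with siNOP56 (−0.41). KIF2C had 58.8, 78 and 92 CPM with siFBL, against 85.2, 101 and 114 with siNOP56 (−0.39). BUB1B and ASPM had the largest decreases of the 6. CDCA8 had 13.3, 22.5 and 77.1 CPM with siFBL, against 17.8, 28.4 and 97.8 with siNOP56 (−0.36). KIF20A had 54.1, 69.7 and 87.9 CPM with siFBL, against a lowest of 61.1 and a median of 86.8 with siNOP56 (−0.27). MKI67 had 224, 313 and 487 CPM with siFBL, against 292, 398 and 483 with siNOP56 (−0.25). PLK1 led the members higher with siFBL. It had 90.9, 199 and 548 CPM with siFBL, against 75.2, 141 and 462 with siNOP56 (0.36). CDK1 had 31.5, 48.3 and 65.5 CPM with siFBL, against 21.1, 35.3 and 63.3 with siNOP56 (0.32). KIF4A had 75.2, 146 and 252 CPM with siFBL, against 63, 128 and 201 with siNOP56 (0.24). Over all hours together, these ranges overlapped. BIRC5 had 157, 282 and 406 CPM with siFBL, against 138, 242 and 364 with siNOP56 (0.20). Leaving out libraries moved the higher calls to 1 (siFBL replicate 2 of 0, 6 or 12 h, siNOP56 replicate 2 of 12 or 24 h), 2 (siFBL replicate 2 of 24 h, siNOP56 replicates 1 and 2 of 0 h) or 7 (siNOP56 replicate 1 of 24 h). It moved the lower calls to 2 (siFBL replicate 2 of 0 or 6 h), 3 (siFBL replicate 2 of 12 h, siNOP56 replicate 2 of 24 h) or 11 (siFBL replicate 1 of 24 h).

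With siCTRL in HEK293T, 22 members had a falling slope over 0 to 24 h and 4 a rising one (28.3% and 21.8% of all genes), and 32 and 1 with ribosomal protein scaling (56.1% and 4.77%). The rising ones were KIF4A (0.057), CKS1B (0.053), BIRC5 (0.044) and TPX2 (0.02), and the steepest falling ones included CKS2 (−0.096), NEK2 (−0.089) and TTK (−0.086). The difference of slopes called 0 members lower and 0 higher for siFBL (0% and 0% of all genes) and 0 and 0 for siNOP56 (0% and 0%). At an unadjusted p under 0.05 the edgeR test gave 0 lower and 1 higher for siFBL and 0 and 0 for siNOP56, and DESeq2 called 0 in each.

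One model of both time courses tested whether the siFBL effect differed between the cell lines. At 0 h it was lower in C4-2 than in HEK293T for 32 of 37 members and higher for 0 (4.55% and 2.81% of all genes), with a median difference of −1.97. Over the mean of 0, 6 and 12 h, the hours both courses share, it was lower for 35 and higher for 0 (15.6% and 14.3%), with a median of −2.14. PLK1 (−3.20, SE 0.225) and CDC20 (−3.14, SE 0.145) differed most. Both were lower with siFBL in C4-2, and both were called higher with siFBL in HEK293T over the mean of its 4 hours, calls that were lost with counts summed over the hours (edgeR adjusted p = 0.0967 for PLK1 and 0.0758 for CDC20). CKS2 differed least of the called members (−1.06, edgeR adjusted p = 0.000116). SKA2 (log2 −0.98, SE 0.6, edgeR adjusted p = 0.251) and ANAPC10 (log2 −0.24, SE 0.648, edgeR adjusted p = 0.983) were not called. Both were low in the second siFBL library of either line, B in C4-2 and replicate 2 in HEK293T. At 0 h CKS2, BUB1B and HMMR were not called either, with edgeR adjusted p-values of 0.0754, 0.089 and 0.0942. HMMR had 32.5 and 21.5 CPM with siFBL, against 115 and 102 with siCTRL, in C4-2 and 51 and 28 CPM with siFBL, against 49.6 and 50.6 with siCTRL, in HEK293T. CKS2 had 61.7 and 69.6 CPM with siFBL, against 66.3 and 64.6 with siCTRL, in HEK293T. FBL itself was lower to a different degree, 89.3-fold in C4-2 and 19.1-fold in HEK293T at 0 h, and its own difference between the lines over the shared hours was −2.32 on the log2 scale (edgeR adjusted p = 0.000101). Cell line, strength of the knockdown, depth and time course change together, so they cannot be told apart. Of the 80 other mitosis genes, 67 were lower and 0 higher over the shared hours (15.6% and 14.3% of all genes).

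RNA of the FBL immunoprecipitation was compared with input in C4-2 cells with siCTRL. The samples hold no control immunoprecipitation, so a higher value in RIP does not by itself show binding by FBL. Mitosis transcripts did not move one way: 21 of 37 were called higher in RIP and 13 lower (39.9% and 43% of all genes), with a median log2 difference of 0.41 beside −0.11 over all genes. With ribosomal protein scaling 27 were higher and 9 lower (63.5% and 18% of all genes), with the median of all genes at 0.84, and NEK2, NDC80, NUF2 and HMMR then had differences above 0. Long mRNAs of the list stood high. MKI67 had 1585 and 1645 CPM in RIP, against 122 and 143 in input (log2 3.61, SE 0.0801, edgeR adjusted p = 3.14e-26). KIF4A, KIF14 and TOP2A were next, at 2.51, 2.40 and 2.21. All 6 kinesins, all 3 checkpoint genes and both chromosome proteins were called higher. All 3 kinetochore genes were called lower, a direction that turned for NDC80 and NUF2 with the other scaling.

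Among the members given by library above, KIF20A had 296 and 327 CPM in RIP, against 141 and 152 in input (log2 1.09). BUB1B had 163 and 178 CPM in RIP, against 65.3 and 74.9 in input (1.28). PLK1 had 109 and 124 CPM in RIP, against 37.6 and 39.3 in input (1.60). Each had both RIP libraries above both input libraries. CDC20 had 110.5 and 125 CPM in RIP, against 52.6 and 54.3 in input (1.14). TPX2 had 237 and 264 CPM in RIP, against 179 and 197 in input (0.41). BIRC5 had 70.1 and 69.1 CPM in RIP, against 51.7 and 55.1 in input (0.38). The excess was smaller for TPX2 and BIRC5. The other called-higher members lay between TTK (0.37) and ASPM (2.06), with KIF23 at 1.84, CCNB1 at 1.37, CCNB2 at 1.24, DLGAP5 at 1.15, NUSAP1 at 1.07, BUB1 at 0.92, KIF11 at 0.91, ANLN at 0.57 and KIF2C at 0.56.

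The members called lower in RIP were led by short mRNAs. CKS2 had 4.91 and 5.25 CPM in RIP, against 60.3 and 54.1 in input (log2 −3.49). PTTG1 had 24.9 and 19.9 CPM in RIP, against 141 and 152 in input (−2.71). CKS1B had 13.8 and 13.8 CPM in RIP, against 79 and 81.3 in input (−2.54). In all 3 the RIP libraries lay far below input. SKA2 had 7.95 and 7.35 CPM in RIP, against 39.9 and 33.6 in input (−2.26). UBE2C had 25.4 and 28.6 CPM in RIP, against 76.6 and 81.5 in input (−1.55). AURKB had 26.4 and 29.6 CPM in RIP, against 80.3 and 83.6 in input (−1.55). These too had no overlap between RIP and input. AURKA had 48.2 and 53.1 CPM in RIP, against 139 and 147 in input (−1.50). CDCA3 had 19.8 and 22.6 CPM in RIP, against 53.5 and 56 in input (−1.37). CDCA8 had 37.8 and 35.7 CPM in RIP, against 88.9 and 92.9 in input (−1.31). Both Aurora kinases and the passenger gene CDCA8 were lower in RIP. NEK2 had 31.2 and 29.9 CPM in RIP, against 52 and 51.5 in input (−0.76). HMMR had 28.1 and 29.1 CPM in RIP, against 49.4 and 44.3 in input (−0.71). NUF2 had 16.5 and 15.4 CPM in RIP, against 24.7 and 24.1 in input (−0.61). These differences were smaller and changed sign with the other scaling. NDC80 had 51.9 and 53.9 CPM in RIP, against 60.3 and 70 in input (−0.30). Of the 3 members not called, PRC1 had 93.9 and 99.2 CPM in RIP, against 95.2 and 102 in input, CDK1 had 67.7 and 69.8 CPM in RIP, against 76.6 and 69.4 in input and ANAPC10 had 1.04 and 0.966 CPM in RIP, against 1.33 and 1.64 in input.

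The RIP difference went with transcript length. Over the 37 members, Spearman's rho between the log2 RIP difference and the length of the principal transcript was 0.676, and it was 0.477 over 12871 genes with such a transcript; these are descriptions across genes of the same 4 libraries, and genes are not independent replicates. The 5 members under 1500 nt had a median of −2.54, beside −1.30 over all genes of that length. The 18 members of 1500 to 3000 nt had −0.19, beside −0.50, the 8 of 3000 to 4500 nt had 1.0, beside 0.13, and the 6 of 4500 nt or more had 2.14, beside 0.74. MKI67 is the longest, at 12678 nt, and CKS2 the shortest, at 613 nt. SKA2, at 2798 nt, stood lower than the median of its length class. The part of length in the RIP differences was not tested beyond these values.

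**Figure D4:**
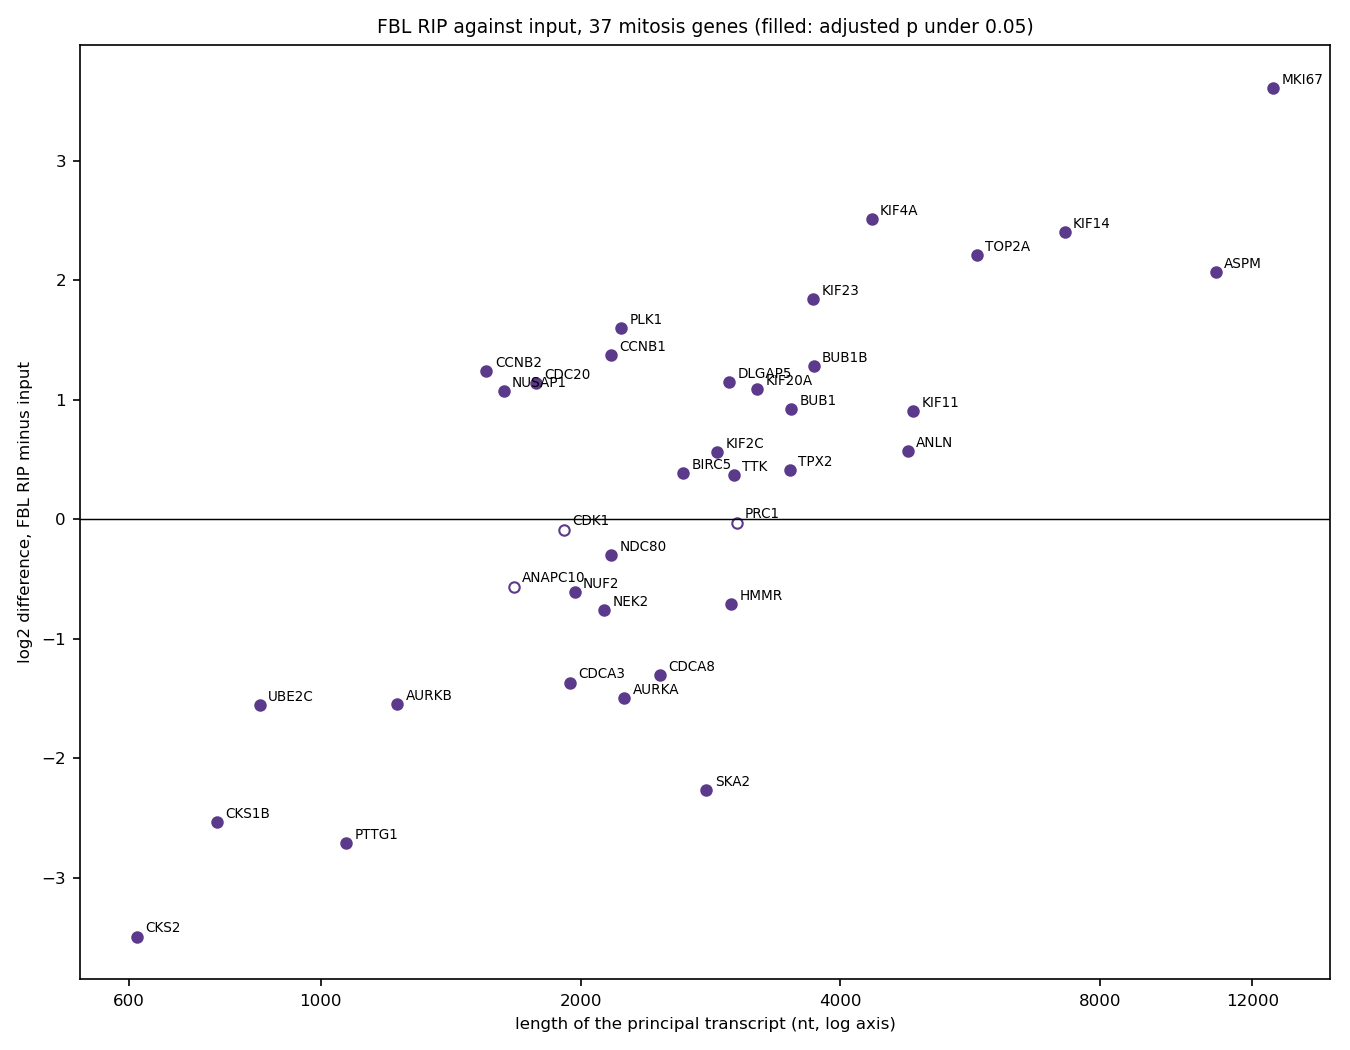
Log2 RIP against input (2 libraries each) of the 37 mitosis genes against the length of the principal transcript in nucleotides on a log axis, filled where called. Longer members lie higher, with CKS2 (613 nt) lowest at −3.49 and MKI67 (12678 nt) highest at 3.61.

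SLAM-seq gave a second measure of the mitosis genes in C4-2, from 3′ end reads, at lower depth: the 37 members together held 1720 to 21181 reads in a library. The labelled hours did not group like libraries. The hours in the file headers did: with siCTRL, the T>C share over all genes was 58.4% and 58.3% at header hour 0. It was 34.1% and 33.6% at 6 h, 21.6% and 21.3% at 12 h and 10% and 10.1% at 24 h. Tests with the labelled hour thus mix libraries of unlike T>C share within an hour. The 2 siCTRL libraries labelled 0 h had T>C conversions in 82.8% and 9.19% of their member reads, and pairs of libraries of one siRNA differed by 25.1 to 269 chi-square units per degree of freedom over genes when paired by label, against 4.15 to 10.7 when paired by the hour in the file header. Over all 16 libraries with the labelled hour in the model, 2 members were called lower with siFBL and 0 higher (0.541% and 0.313% of all genes), with a median of −0.12. With the header hour in its place, a model added after the values were seen, 2 were lower and 0 higher as well (5.08% and 5.35% of all genes). SKA2 had 13.8, 18.7 and 28.1 CPM with siFBL, against 39.9, 48.2 and 64.9 with siCTRL, as lowest, median and highest of 8 libraries (log2 −1.38, SE 0.151, edgeR adjusted p = 0.00053). It was the 1 member whose siFBL libraries all lay below all siCTRL libraries, and no member lay above (0.326% and 0.254% of all genes). ANAPC10 had 1.72, 4.08 and 6.83 CPM with siFBL, against 6.16, 10.2 and 13.8 with siCTRL (log2 −1.27, SE 0.254, edgeR adjusted p = 0.0238). Without the 2 siFBL libraries that stood apart, 1 member was called lower, SKA2, and 0 higher (0.372% and 0.304% of all genes), and ANAPC10 was at −1.04 (edgeR adjusted p = 0.0594). The count was also 1 without siCTRL replicate 1 of labelled 0, 12 or 24 h, siCTRL replicate 2 of 6 h, siFBL replicate 2 of 0 h or siFBL replicate 1 of 6 h.

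Grouped by the hour in the file headers, chosen after the values were seen, the summed reads of the members were lower with siFBL at 0, 6 and 12 h and higher at 24 h. At header hour 0 the summed members took 329.5 and 333.1 reads per M reads with siFBL, against 596.4 and 617 with siCTRL, and 12 members were called lower and 0 higher (4.87% and 5.02% of all genes). At header hour 6 they took 279.7 and 260.7 with siFBL, against 421.4 and 387.8 with siCTRL, with 8 lower and 0 higher (3.36% and 3.09%). At header hour 12 they took 215.8 and 199 with siFBL, against 319.8 and 308.3 with siCTRL, with 5 lower and 0 higher (2.67% and 3.42%). The sums did not overlap at any of these hours. At header hour 24 they took 362.6 and 352.9 with siFBL, against 182.3 and 210.5 with siCTRL, with 2 lower and 21 higher (18.9% and 22.7%). The 2 siFBL libraries of header hour 24 are those that stood apart, and their part in the result at that hour cannot be told apart from the hour.

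The share of reads with a T>C conversion, which marks RNA made during labelling, was lower in the members at later header hours. It was 77.8% (95% Wilson interval 76.6 to 79%) and 78.3% (76.9 to 79.5%) with siFBL at header hour 0, against 82.8% (82 to 83.5%) and 81.1% (80.6 to 81.7%) with siCTRL. At 6 h it was 41.9% and 37.2% with siFBL, against 47% and 50.7% with siCTRL. At 12 h it was 12.6% and 15.9% with siFBL, against 27.3% and 24.9% with siCTRL. In the siFBL libraries the share was lower than in the siCTRL libraries at each of these hours. At 24 h it was 4.16% and 4.53% with siFBL, against 9.19% and 7.36% with siCTRL. Over all genes, by the interval kept for each, the share was 54.5% and 54.3% with siFBL at header hour 0, against 58.4% and 58.3% with siCTRL. At 12 h it was 18% and 18.4% with siFBL, against 21.3% and 21.6% with siCTRL, and at 24 h 5.01% and 5.17% with siFBL, against 10% and 10.1% with siCTRL. The intervals cover counting error only. Both the summed reads and this share weigh members by their reads. CKS2 held the most, 33243 over the 16 libraries with 64.9% T>C, before SKA2 with 12473 and PTTG1 with 12064. In 1 library each of header hour 0, CKS2 held 1998 of 4673 member reads with siFBL and 3160 of 9542 with siCTRL. In 1 library each of header hour 24 it held 908 of 11105 with siFBL and 141 of 1720 with siCTRL. The part of CKS2 in these values was not tested. Per gene, 35 members could be tested. With the labelled hour in the model edgeR called 0 lower and 0 higher (0% and 0% of all genes), with 0 at an unadjusted p under 0.05. Libraries of the same labelled hour differed widely in T>C share, so that test could hardly call any gene. No conclusion is drawn from it. With the header hour in its place 1 was lower, CKS2 (log2 −1.18, edgeR adjusted p = 8.61e-05), and 0 higher (1.19% and 0.116% of all genes), and 4 lower and 0 higher reached an unadjusted p under 0.05. DESeq2 was not run on this share.

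**Figure D5:**
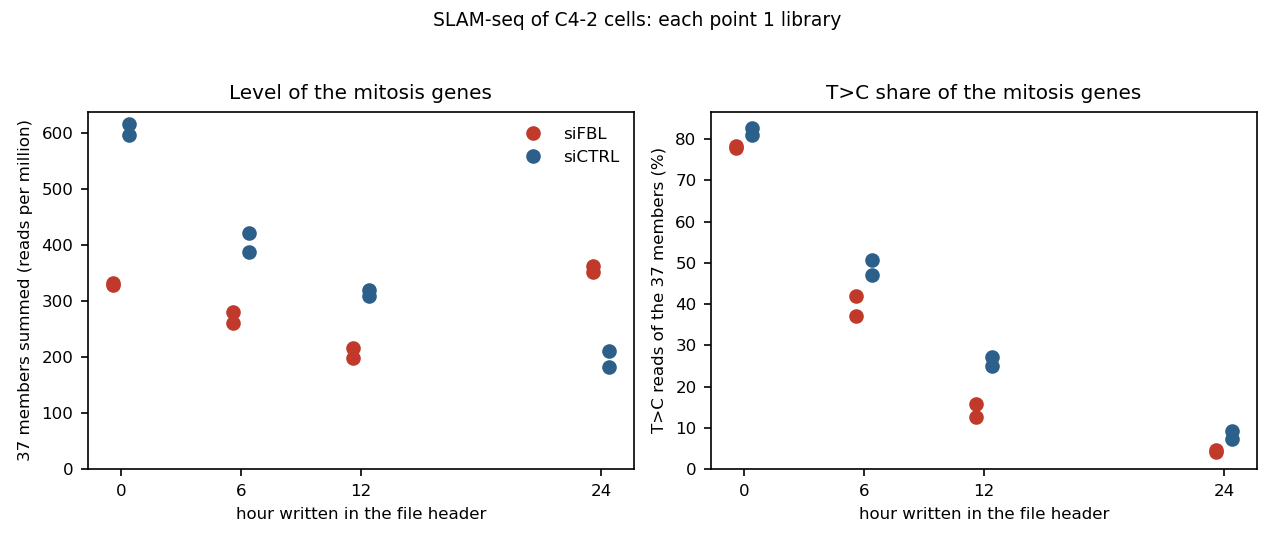
Summed reads per M reads of the 37 mitosis genes and their share of T>C reads (percent) in the 16 SLAM-seq libraries of C4-2 cells by the hour in the file header, siFBL and siCTRL. The siFBL libraries lie below siCTRL at 0, 6 and 12 h in summed reads and above it at 24 h (362.6 and 352.9 with siFBL, against 182.3 and 210.5 with siCTRL). Members with many reads, CKS2 first, weigh most in both panels.

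The siFBL effect in the C4-2 time course was set against that in SLAM-seq in 1 model, a comparison added after the values were seen. It was lower in the time course for 29 of 37 members and higher for 0 (5.82% and 2.88% of all genes), and for 20 and 0 without the 2 libraries apart (6.51% and 2.71%). These use the labelled hours of SLAM-seq. With the header hour as a covariate it was lower for 35 and higher for 0 (11.7% and 6.25%), and over the mean of header hours 0, 6 and 12 for 23 and 0 (11.3% and 6.52%), where TTK and NDC80 had differences above 0 that were not called. With the labelled hours, the 8 members not called held the 2 that SLAM-seq called, SKA2 (−0.58, edgeR adjusted p = 0.336) and ANAPC10 (0.38, edgeR adjusted p = 0.747). CCNB2 had 1.01, 4.68 and 9.47 CPM with siFBL, against 2.98, 6.46 and 16.9 with siCTRL in SLAM-seq. BIRC5 had 1.62, 11 and 23.3 CPM with siFBL, against 2.46, 6.88 and 40.7 with siCTRL. PTTG1 had 11.9, 27.9 and 41.7 CPM with siFBL, against 9.65, 32.2 and 80.3 with siCTRL. Their siFBL and siCTRL ranges overlapped. CKS2 had 30.7, 82.7 and 155 CPM with siFBL, against 13.6, 99.1 and 230.1 with siCTRL. HMMR had 0, 1.4 and 3.34 CPM with siFBL, against 0.411, 1.65 and 5.15 with siCTRL. TOP2A had 0, 0.646 and 6.99 CPM with siFBL, against 0.196, 1.49 and 2.17 with siCTRL. These ranges overlapped as well, and the medians were lower with siFBL. The assays differ in library type, depth and hours, which change together. Many members lay near the floor in SLAM-seq, where an siFBL effect can hardly be measured. With siCTRL the summed members took 182.3 to 617 reads per M reads in SLAM-seq and 3655 to 5287 counts per M counts in the time course. Median CPM with siCTRL was 0.326 against 30.3 for TTK, 0.296 against 59.2 for NDC80 and 0.193 against 32 for ASPM. CKS2, at 99.1 against 119, was not near the floor. Neither were SKA2 (48.2 against 94.55), PTTG1 (32.2 against 233), AURKA (22 against 36.7) and CKS1B (19.5 against 93.2). In SLAM-seq, median CPM with siFBL against siCTRL was 19.7 against 22 for AURKA and 16.6 against 19.5 for CKS1B. For SKA2 it was 18.7 against 48.2. The part of the floor in the difference between the assays was not tested.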

How the data were processed

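RNA-seq counts per gene symbol were deposited by the authors as whole numbers. TopHat2 2.1.1, HOMER and Trim Galore are named per the submitters' processing notes, without a role, as are more than one human genome build, and the sources used here do not tie an aligner or annotation to any table. For SLAM-seq, counts of reads and of T>C reads per 3′ interval came from slamdunk 0.4.3, per the file headers. The deposited score column, a reads-per-million value, served to recover mapped reads. Of 117417 intervals, 18327 were repeated lines and were dropped, and the interval with the most reads stood for each gene. Columns of the C4-2 tables match groups and not single samples, so libraries are called A and B. The cell line of those columns is the one each table is named for.

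Genes were filtered with filterByExpr, scaled by TMM and tested by edgeR 4.0.16 quasi-likelihood (limma 3.58.1, R 4.3.3), with Benjamini-Hochberg adjustment over all genes and a threshold of 0.05 on the adjusted p, and the scripts were tested on simulated data. Log2 differences were computed from the deposited counts. Alternatives were size factors of DESeq2 1.42.0 (RLE), its Wald test, scaling to ribosomal protein mRNAs, no filter, single-hour fits, a replicate block, leaving out each library and, added after seeing the data, the SLAM-seq header hour. All 37 members are named. Values by library are given for the member of each role with the highest mean CPM with siCTRL in C4-2 at 0 h, for SKA2 and ANAPC10 and for members called unlike most. Of the 80 other mitosis genes, the 2 with the highest CPM in each role are named, and those called against most of their role. The members and lists were chosen with earlier results of these data known.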

Additional observations from a re-analysis of the deposited data

Results flagged for a closer look

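The siFBL effect differed between the cell lines by the test of the difference itself, in 1 edgeR model of both time courses. At 0 h it was lower in C4-2 than in HEK293T for 32 members (4.55% of all genes). Over the mean of 0, 6 and 12 h it was lower for 35 (15.6% of all genes). The values that follow are that second difference, the log2 siFBL effect in C4-2 minus that in HEK293T. Of the cyclin B and CDK1 genes, CCNB1 stood at −2.24, CCNB2 at −1.95, CDK1 at −2.07, CKS1B at −1.88 and CKS2 at −1.06. Of the mitotic kinases, AURKA stood at −2.30, PLK1 at −3.20 and NEK2 at −2.32. The checkpoint genes TTK, BUB1 and BUB1B were at −2.12, −2.20 and −1.79. The passenger genes AURKB, BIRC5 and CDCA8 were at −2.27, −2.19 and −2.28, and the kinetochore genes NDC80 and NUF2 at −2.39 and −1.98. Of the kinesins, KIF2C stood at −2.01, KIF4A at −2.38, KIF11 at −1.70, KIF14 at −1.98, KIF20A at −2.14 and KIF23 at −2.22. Among spindle and midzone genes, TPX2 was at −2.20, ASPM at −2.30, HMMR at −1.50, DLGAP5 at −2.10, NUSAP1 at −1.77, PRC1 at −2.14 and ANLN at −2.08. Of the anaphase-promoting complex and its substrates, CDC20 was at −3.14, UBE2C at −2.40, PTTG1 at −1.31 and CDCA3 at −2.14. The chromosome proteins TOP2A and MKI67 were at −2.02 and −2.23.

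Within C4-2, the siFBL effect was lower in the time course than in SLAM-seq for 29 members (5.82% of all genes) by the same kind of test. Without the 2 siFBL libraries of SLAM-seq that stood apart it was lower for 20 members (6.51% of all genes). These use the labelled hours, which differ from the file headers in 12 of 16 libraries and did not group like libraries. With the header hour as a covariate it was lower for 35 members (11.7% of all genes). Over the mean of header hours 0, 6 and 12 it was lower for 23 (11.3% of all genes). Many members lay near the floor in SLAM-seq, but CKS2, SKA2, PTTG1, AURKA and CKS1B did not.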

How the results depend on the processing

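In C4-2 the counts of members called lower with siFBL stayed within 1.5 times under every alternative run, with 33 to 36 at 0 h, 35 to 36 at 12 h and 36 to 37 over the mean of the hours when each library was left out in turn. The difference from HEK293T called 28 to 33 members at 0 h and 35 over the shared hours, and RIP 12 to 14 lower and 21 higher, in the same runs.

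Scaling to ribosomal protein mRNAs gave 28 falling and 0 rising slopes with siCTRL in C4-2 (47.5% and 0.102% of all genes). It gave 32 and 0 with siFBL (47.4% and 0.145%), and 1 rising slope in HEK293T (4.77%). It gave 2 lower and 17 higher for siFBL in HEK293T over the mean of the hours (12.2% and 34% of all genes). Against siNOP56 it gave 1 and 8 (2.68% and 13.5%). It gave 0 lower for siNOP56 (11.4%) and 0 higher for siNOP56 at 24 h. Of the other mitosis genes it gave 4 lower in HEK293T, 14 lower in RIP (18% of all genes) and 1 higher in C4-2. It turned the C4-2 slopes of CKS1B (−0.0219 with siCTRL and −0.0112 with siFBL), BIRC5 (−0.0361), KIF4A (−0.0332), PRC1 (−0.0446) and PTTG1 (−0.0348), the HEK293T slope of TPX2 (−0.0201), and in RIP NEK2 (0.185), NDC80 (0.644), NUF2 (0.333) and HMMR (0.233). The cause was not tested.

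Counts summed over the hours gave 0 lower and 0 higher in HEK293T for siFBL (members and other mitosis genes), siNOP56 and siFBL against siNOP56, with 2 sums for each siRNA, and 36 lower in C4-2. Fits of the single hour gave 0 higher at 24 h for siFBL and 0 for siNOP56. DESeq2 gave 1 higher at 0 h and 1 lower at 24 h for siFBL, 2 higher at 24 h for siNOP56, 3 rising slopes with siFBL in C4-2, and 1 other mitosis gene higher in C4-2 and 1 in the difference between lines. RLE size factors also gave 3 rising slopes and 1 other gene higher. They lost ASPM over the mean for siNOP56 (adjusted p = 0.0548), and CCNB1, KIF23 and NDC80 in the time course against SLAM-seq (0.0504, 0.0609 and 0.0624), where DESeq2 lost DLGAP5 (0.129) and NDC80 (0.179). Without the filter, HEK293T lost BIRC5 at 24 h (0.0744) and KIF20A over the mean (0.0735) for siFBL, and BIRC5 against siNOP56 (0.0982).

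The replicate block gave 1 higher at 0 h and 1 lower at 24 h for siFBL, 2 higher at 24 h and 2 lower over the mean for siNOP56, and moved no other count of members by over 1.5 times. Deviations of same-numbered HEK293T libraries correlated between siRNAs at −0.081 to 0.136, so the numbers do not pair the siRNAs. Within one siRNA they correlated across hours at −0.003 to 0.799 (median 0.64), with siCTRL at −0.003 to 0.058 and the knockdowns at 0.531 to 0.799. In C4-2 the block by column number, added after seeing the data, gave 36, 36 and 37 lower at 0 h, at 12 h and over the mean, and 3 rising slopes with siFBL, and deviations correlated between siRNAs at −0.169 to 0.324. Across hours they correlated at 0.158 to 0.479 within siFBL and at −0.047 to 0.018 within siCTRL.

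Leaving out single libraries gave 2 to 5 rising slopes with siCTRL in C4-2, 10 to 20 falling and 1 to 8 rising with siFBL, and 0 to 1 lower for their difference. In HEK293T it gave 0 to 4 lower and 0 to 3 higher for siFBL at 24 h, 4 to 9 lower over the mean, 2 to 11 lower and 1 to 7 higher against siNOP56, 0 to 2 higher for siNOP56 at 24 h, and 0 to 2 lower and 4 to 10 higher over its mean. It gave 1 to 2 lower in SLAM-seq totals and 0 to 1 other mitosis genes higher in C4-2. SLAM-seq totals gave 1 lower without the 2 libraries apart (0.372% of all genes). They gave 12, 8 and 5 lower within header hours 0, 6 and 12 (4.87%, 3.36% and 2.67% of all genes). Within header hour 24 they gave 21 higher (22.7% of all genes), and the T>C share gave 1 lower with the header hour (1.19% of all genes). For the time course against SLAM-seq, the mean of header hours 0, 6 and 12 put TTK at 0.34 and NDC80 at 0.662.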
